A study of Mus musculus with 12 samples.

Results

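The genes described here are those of the interferon response and of antigen processing, in embryoid bodies in which FLAG-tagged LHX1 was switched on. They were chosen by name, as 47 mouse symbols covering interferon receptors, the transcription factors they activate, sensors of foreign RNA, interferon-induced effectors, the immunoproteasome, peptide loading and MHC class I. Of these symbols 46 had a row among the 23086 of the count table, and the expression of *Rnf213* was not analysed here. Of the 46 rows, 38 held 30 or more counts over the 12 libraries, and 35 passed the low-count filter that decided which genes were tested (12322 in all). These genes are counted below as tested members, which leaves out the rarest transcripts of the pathway.

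Total RNA came from mouse A2lox.cre embryonic stem cells grown as embryoid bodies for 2 days, aggregates in which the cells begin to differentiate. One line carried FLAG-*Lhx1* in its wild-type form, and the other a mutant form whose change the labels do not name. LHX1 is a LIM homeodomain transcription factor needed for head formation. Each line was kept without doxycycline, the antibiotic that switches on the transgene, or exposed to it for 16 h. The 4 groups, of 3 libraries each, were wild-type untreated, wild-type treated, mutant untreated and mutant treated. All 4 groups carry a transgene, the labels name 1 line for each form, and no line without a transgene was compared, so a difference between the lines cannot be told apart from a difference between cell lines. Nothing in the labels says whether the 3 libraries of a group came from separate cultures, so each p-value reflects the spread among these samples alone, and that spread may be technical.

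Interferons act through paired receptor chains whose kinases activate STAT proteins. Type I interferon acts through a complex that holds STAT2 and IRF9 and binds a DNA element called the ISRE, and interferon gamma acts through the GAS element and induces *Irf1*. The genes induced this way limit viruses, and they also raise the display of peptides: the immunoproteasome cuts proteins, TAP carries the peptides into the endoplasmic reticulum, ERAP1 trims them, tapasin loads them, and MHC class I chains with beta-2 microglobulin carry them to the surface. Pluripotent stem cells are known for a weak interferon response, low MHC class I and a basal level of some of these genes without interferon.

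Levels are given as CPM, counts scaled to the TMM-adjusted library size, as means ± SD of 3 libraries unless single libraries are listed in the order of their replicate numbers. Each difference is a log2 fold change, with the standard error (SE) that its F statistic implies. Calls were made by edgeR's quasi-likelihood test at 0.05 after Benjamini-Hochberg adjustment over all 12322 genes. The libraries held 4289984 to 4850393 counts. *Lhx1*, which checks the labels, stood at 0.407 to 0.429 CPM in the untreated and 235 to 260 in the treated mutant libraries, and at 1.12 to 3.33 and 289 to 307 in the wild-type ones. Genes of embryonic stem cells and epiblast (10 of 10 measured, *Pou5f1* and *Cdh1* among them) summed to 5643 to 6326 CPM per library. In the wild-type line 2 libraries stood apart from the rest: treated library 2, in which 1.45% of counts fell on *Rn45s*, the precursor of ribosomal RNA (0.0884% to 0.265% elsewhere), and untreated library 3, with 1023 counts of the hypoxia gene *Bnip3* against 246 and 280 in its group. Treated library 3 also held more *Bnip3* than the rest of its group, 490 counts against 228 and 277. *Adm* held 28 counts there against 1 and 3, and 49 in untreated library 3 against 2 and 6. Treated library 3 is not counted below among the 2 that stood apart.

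The upstream sequences of 5 members are shown because they carry the elements through which interferon is known to act, in genes with different outcomes in these data. *Irf1*, *Bst2* and *Ddx60* fell in the wild-type line (values below), *B2m* was not called, and *Isg15* was close to absent. Each sequence runs 5′ to 3′ up to the base before the RefSeq start (build GRCm38.p6, the same genome as mm10). Capitals mark matches, on either strand, to TTTC followed by any 2 bases and a second TTTC (read as GAAA repeats on the other strand), the core of an ISRE, or to TTCNNNGAA, the core of a GAS element.
Irf1, chr11:53769904-53770013, plus strand: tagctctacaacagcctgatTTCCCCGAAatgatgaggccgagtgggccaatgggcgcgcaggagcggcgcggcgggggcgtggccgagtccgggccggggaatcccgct
Bst2, chr8:71537473-71537628, minus strand: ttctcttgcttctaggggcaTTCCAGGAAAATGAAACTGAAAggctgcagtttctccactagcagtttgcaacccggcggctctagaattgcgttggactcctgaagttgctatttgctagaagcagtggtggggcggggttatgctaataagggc
Ddx60, chr8:61928014-61928086, plus strand: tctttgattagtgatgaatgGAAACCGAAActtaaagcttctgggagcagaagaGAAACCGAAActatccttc
B2m, chr2:122147528-122147686, plus strand: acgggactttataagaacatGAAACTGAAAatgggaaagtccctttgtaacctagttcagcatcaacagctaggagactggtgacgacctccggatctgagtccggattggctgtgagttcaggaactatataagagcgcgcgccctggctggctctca
Isg15, chr4:156200819-156200916, minus strand: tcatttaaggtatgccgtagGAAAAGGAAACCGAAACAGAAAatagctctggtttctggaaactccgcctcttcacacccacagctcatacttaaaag

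In *Irf1* the capitals are 1 GAS match, TTCCCCGAA. In *Bst2* a GAS match, TTCCAGGAA, runs into overlapping ISRE matches, in *Ddx60* the same ISRE match, GAAACCGAAA, occurs at 53 and at 19 bases before the start, *B2m* has a single ISRE match, and *Isg15* has 3 overlapping ones. RefSeq gave promoters for 40 of the 47 genes, *Rnf213* among them although its expression was not analysed. Within 250 bases before the start, 8 of the 40 held an ISRE match (*B2m*, *Bst2*, *Ddx60*, *Ifit1*, *Ifit3*, *Irf2*, *Isg15* and *Stat2*), as did 2.98% of all 32851 windows of that length. A GAS match was found for 7 of the 40 (*Bst2*, *Eif2ak2*, *Ifit2*, *Ifnar2*, *Irf1*, *Irf2* and *Psmb8*), against 7.02% of all windows. Of the 12 genes in this set that fell in the wild-type line, 2 held an ISRE match and 3 a GAS match, and of the 20 other tested members 2 and 3. A match describes letters only and is not evidence of binding.

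With wild-type FLAG-LHX1 switched on, 13 of the 35 tested members fell and none rose (37.1% of them lower, against 2.56% of all genes tested that were called lower, 2.76% called higher and 5.32% called in either direction). The 13 were *Irf1*, *Ddx60*, *Ifi35*, *Bst2*, *Pml*, *Parp9*, *Parp12*, *Psmb8*, *Psmb10*, *Psme1*, *Psme2*, *Tapbp* and *Erap1*. They span every role except the receptors and the class I chains. The median log2 fold change of the 35 was −0.29, against −0.00 over all genes tested, and 29 of 35 lay below 0 (50.8% of all genes). With edgeR, 1 member had an unadjusted p under 0.05 in the upward direction (*Ifnar1*) and 18 in the downward one, and DESeq2 also called none higher and 11 lower. The treated and untreated wild-type libraries did not overlap for 14 members in the downward direction (9.06% of all genes) and 2 in the upward one (9.84%). In bulk RNA, fewer cells that express a gene and less RNA per cell cannot be told apart.

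**Figure D1:**
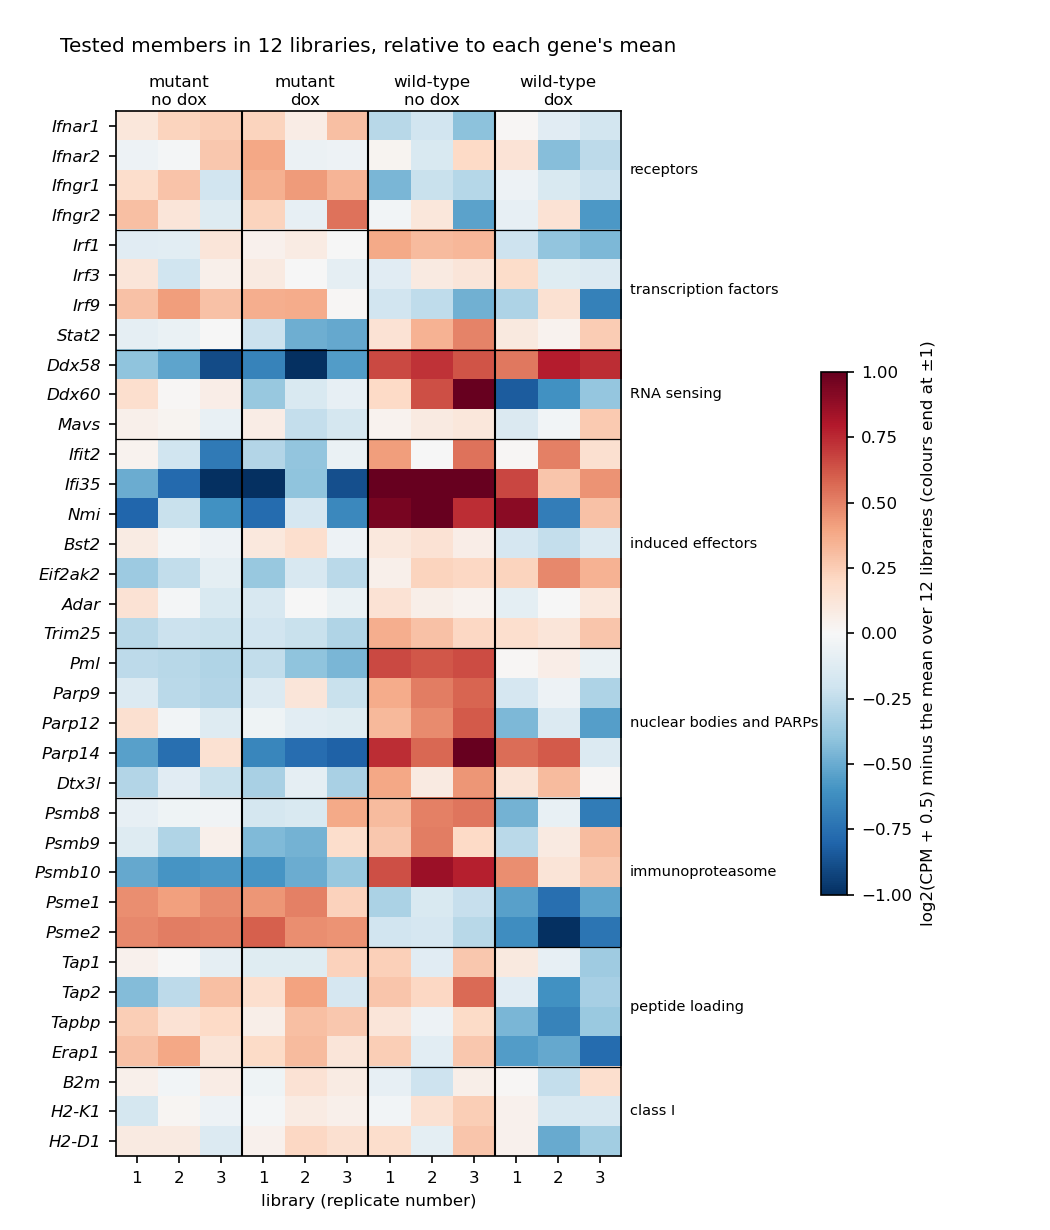
Each row is a tested member and each column a library, grouped by line and treatment. Colour is log2(CPM + 0.5) minus the gene's mean over the 12 libraries, with the scale ending at 1 in either direction. *Psmb10*, *Pml* and *Ifi35* are high in untreated wild-type libraries. *Ddx58* is high, and *Psme1* and *Psme2* are low, in both wild-type groups. The 13 members that fell turn bluer from untreated to treated wild-type libraries.

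Of the 4 tested transcription factors 1 was called, *Irf1*, where 5.32% of all genes tested were called in either direction. *Irf1* (chromosome 11, 53770014 to 53778374, mm10), the interferon regulatory factor that drives class I and immunoproteasome genes, stood at 97.5, 93.1 and 94.6 CPM in the untreated and 64.9, 56.8 and 54.8 in the treated wild-type libraries. All treated libraries lay below all untreated ones, a log2 fold change of −0.69 (SE 0.07, adjusted p = 1.97e-10 by edgeR). *Irf3*, the factor activated by RNA sensing, was not called, with 23 ± 2.04 and 22.2 ± 2.92 CPM. *Irf9* and *Stat2*, partners in the type I interferon complex, were not called either, with log2 fold changes of 0.06 (SE 0.27) and −0.21 (SE 0.11).

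None of the 4 receptor chains was called in the wild-type response, where 5.32% of all genes tested were called in either direction. *Ifnar1*, a chain of the type I receptor, read 52.1, 55.4 and 47.5 CPM without and 63.8, 58.4 and 55.9 with doxycycline. These groups did not overlap, yet the difference of 0.20 (SE 0.08) had an edgeR adjusted p of 0.189. *Ifnar2*, *Ifngr1* and *Ifngr2* lay between −0.22 and 0.19, with SEs of 0.24 to 0.25, and the groups of *Ifngr1* did not overlap (4.52 to 5.43 and 5.44 to 6.17 CPM). At 17 to 34 counts per wild-type library these 3 receptors allowed no fine comparison.

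The genes of PML nuclear bodies and ADP-ribosylation held the smallest adjusted p of all members. *Pml* (chromosome 9, 58218076 to 58249786), which scaffolds the nuclear bodies, stood at 298, 289 and 296 CPM in the untreated and 190, 196 and 179 in the treated wild-type libraries. That is a log2 fold change of −0.64 (SE 0.05, adjusted p = 7.25e-15 by edgeR), or 0.64 times the untreated level, with the groups far apart. *Parp12* (chromosome 6, 39086410 to 39118349), an ADP-ribosyltransferase with antiviral activity, went from 31.6, 35.0 and 38.8 to 18.3, 22.8 and 17 CPM (log2 fold change −0.87, SE 0.12, adjusted p = 2.25e-07 by edgeR). *Parp9* (chromosome 16, 35938470 to 35972605) went from 28.8, 31.9 and 33.4 to 19.7, 21.4 and 17.8 (−0.68, SE 0.12, adjusted p = 4.24e-05 by edgeR). Of both, every treated library was below every untreated one.

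*Dtx3l*, the ubiquitin ligase that works as a pair with PARP9, lies head to head with *Parp9*, and the annotated genes overlap by 682 bases on opposite strands. It was not called, with 34.7, 28.3 and 36.1 CPM without and 29.0, 33.0 and 26.7 with doxycycline, groups that overlapped (log2 fold change −0.16, SE 0.11). The labels do not state whether counting used strand, so reads in the overlap cannot be assigned to one of them. *Parp14*, the third gene of this cluster, had −0.44 (SE 0.20, adjusted p = 0.262 by edgeR).

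In the immunoproteasome list 4 of the 5 genes were called lower, against 2.56% of all genes tested. *Psmb10* (chromosome 8, 105935735 to 105938444), which replaces a constitutive catalytic subunit, read 71.8, 83.7 and 78.9 CPM without and 63.5, 50.4 and 55.4 with doxycycline (log2 fold change −0.47, SE 0.08, adjusted p = 2.73e-05 by edgeR). *Psme2* (chromosome 14, 55587441 to 55591113), a subunit of the PA28 activator that caps the proteasome, went from 69.2, 70.3 and 65.2 to 51.2, 39.2 and 47.4 (−0.57, SE 0.08, adjusted p = 6.66e-07 by edgeR). Its partner *Psme1* went from 57.6, 64.4 and 61.2 to 49.1, 42.3 and 49.6 (−0.38, SE 0.08, adjusted p = 0.00178 by edgeR). In all 3 genes the groups did not overlap, and in each the lowest value belonged to treated library 2, which stood apart in *Rn45s*. *Psme2* has a near-identical copy in the mouse genome, *Psme2b*, and its counts may be shared with it.

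*Psmb8*, the immunoproteasome subunit encoded in the MHC region, held fewer counts, 28, 34 and 35 without and 16, 21 and 14 with doxycycline. It fell by 0.93 on the log2 scale (SE 0.25, adjusted p = 0.011 by edgeR). The call was lost without treated library 3 (−0.78, adjusted p = 0.11 by edgeR) and in DESeq2 (adjusted p = 0.193). *Psmb9*, the third inducible catalytic subunit, was not called, with 3.74 ± 0.490 and 3.02 ± 0.708 CPM. *Psme1* lost its call once both libraries that stood apart were left out (−0.31, adjusted p = 0.0563 by edgeR). The constitutive subunits that the inducible ones replace were not called: *Psmb5* had −0.07, *Psmb6* −0.05 and *Psmb7* −0.02.

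In peptide loading, the chaperone and the trimming enzyme fell. *Tapbp* (chromosome 17, 33915899 to 33929292), tapasin, read 34.7, 30.7 and 36.5 CPM without and 23.1, 19.95 and 24.6 with doxycycline (log2 fold change −0.59, SE 0.11, adjusted p = 0.000181 by edgeR). *Erap1* (chromosome 13, 74639568 to 74693201), the aminopeptidase, went from 21.2, 16.5 and 21.5 to 11.9, 12.4 and 10.2 (−0.78, SE 0.15, adjusted p = 0.000187 by edgeR). Neither gene had overlapping groups.

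The transporter subunits were not called. *Tap1* stood at 10.6 ± 1.57 and 8.90 ± 1.45 CPM, and *Tap2* at 5.57 ± 0.817 and 3.25 ± 0.636, the latter without overlap between the groups (log2 fold change −0.77, SE 0.28, adjusted p = 0.114 by edgeR). *Tap1* and *Psmb9* are transcribed in opposite directions from RefSeq starts 226 bases apart, and neither was called in any comparison. Their annotated genes overlap by 212 bases, with the same limit on assigning reads.

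The class I chains themselves were not called. *B2m*, beta-2 microglobulin, read 20.7, 19.0 and 22.9 CPM without and 22.2, 18.5 and 24.8 with doxycycline. Its log2 fold change was 0.07 (SE 0.13). *H2-K1* had −0.22 (SE 0.09, adjusted p = 0.171 by edgeR) and *H2-D1* −0.40 (SE 0.18, adjusted p = 0.254 by edgeR), and in both the groups overlapped. These class I genes have similar sequences, so reads may be lost or shared between them. *Nlrc5*, the transactivator of class I genes, held 2 to 11 counts per library and was not tested.

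Among sensors and effectors, *Bst2*, *Ddx60* and *Ifi35* fell. *Bst2*, tetherin, which holds budding virus at the membrane, read 102, 105 and 99.7 CPM without and 84.8, 80.5 and 86.5 with doxycycline, a small difference without overlap (log2 fold change −0.29, SE 0.07, adjusted p = 0.00307 by edgeR). *Ddx60*, a helicase of antiviral defence, held 12, 18 and 31 counts without and 5, 6 and 8 with doxycycline (−1.67, SE 0.37, adjusted p = 0.0013 by edgeR). *Ifi35*, an interferon-induced leucine zipper protein, held 45, 37 and 40 and 28, 20 and 25 counts (−0.75, SE 0.22, adjusted p = 0.0284 by edgeR).

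The call of *Ddx60* rested on untreated library 3, without which it had −1.26 (adjusted p = 0.0664 by edgeR). Leaving out untreated library 3 and treated library 2 together gave −1.25 (adjusted p = 0.124 by edgeR). In the same library *Dcn*, a fibroblast marker, held 26 counts against 5 and 4 in its group, and the part of this in the *Ddx60* result was not tested. *Ifi35* lost its call without untreated library 1, treated library 2 or treated library 3 (edgeR adjusted p 0.099 to 0.156), without both that stood apart (0.143) and in DESeq2 (0.454), at log2 fold changes of −0.76 to −0.64. The other tested sensors and effectors were not called. *Ddx58*, the RNA sensor RIG-I, stood at 26.4 ± 0.917 and 26.6 ± 2.52 CPM, *Mavs*, its mitochondrial adaptor, at 26.5 ± 0.734 and 25.7 ± 3.84, and *Adar*, the RNA-editing enzyme, at 78.0 ± 3.18 and 73.8 ± 5.18. *Trim25*, *Eif2ak2*, *Ifit2* and *Nmi* had −0.09, 0.19, −0.11 and −0.67.

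**Figure D2:**
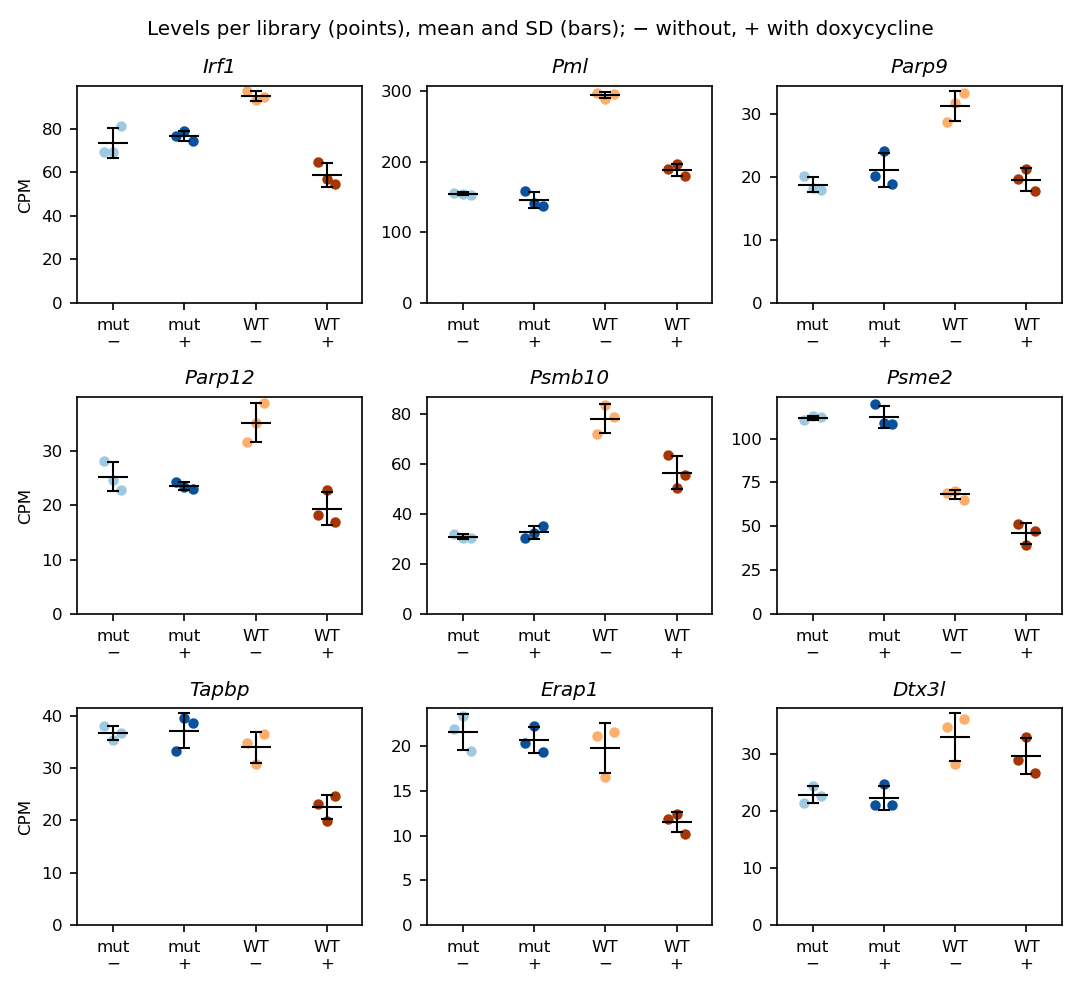
CPM of 9 members in each library (points, replicates 1 to 3 from left to right), with mean and SD of 3 libraries (bars), for the mutant (mut) and wild-type (WT) lines without (−) and with (+) doxycycline. In *Irf1*, *Pml*, *Parp9*, *Parp12*, *Psmb10*, *Psme2*, *Tapbp* and *Erap1* the treated wild-type libraries lie below the untreated ones, while in *Dtx3l* they overlap. The mutant groups overlap in all 9.

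In the mutant line no member was called. *Irf1* read 69.3, 69.6 and 81.5 CPM without and 77.0, 79.3 and 74.6 with doxycycline, *Pml* 156, 155 and 152 and 158, 142 and 137. *Psme2* read 111, 113 and 112 and then 120, 109 and 108. Each pair of groups overlapped. Of all genes tested 0.0162% were called in this comparison, all of them higher (0% lower). The groups did not overlap for *Ifngr1* upward (5.3% of all genes) and for *Stat2* and *Ddx60* downward (5.28%). With edgeR 1 member had an unadjusted p under 0.05, *Stat2*, at 25.1 ± 0.730 and 19.6 ± 2.38 CPM (log2 fold change −0.36, SE 0.12, adjusted p = 0.917 by edgeR), and DESeq2 and limma-voom called none. The median log2 fold change of the members was 0.01, and 15 of 35 lay below 0.

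**Figure D3:**
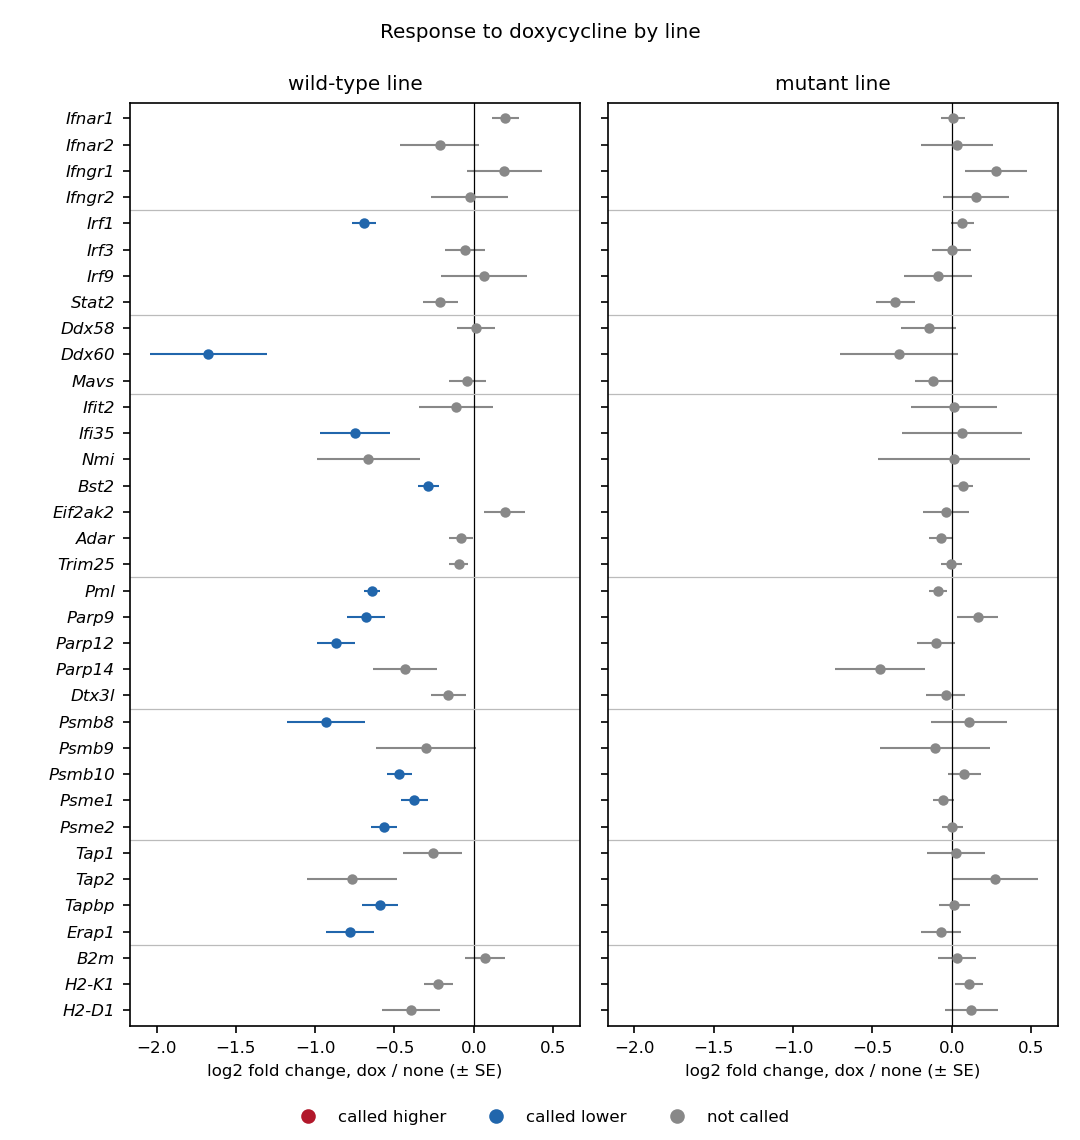
Log2 fold changes (treated over untreated, points) with SE (bars) of the 35 tested members in the wild-type line (left) and the mutant line (right), by role, with calls at an edgeR adjusted p under 0.05 in colour. In the wild-type line 13 members are called lower and none higher; in the mutant line none is called.

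The responses of the lines differed for 9 members, each more negative in the wild-type line (25.7% of members, against 1.09% of all genes called in this direction, 1.4% in the other and 2.49% in either). The difference was −0.76 (SE 0.10, adjusted p = 5.40e-07 by edgeR) for *Irf1*, −0.56 (SE 0.08, 4.08e-07) for *Pml* and −0.57 (SE 0.10, 0.000182) for *Psme2*. *Parp9* (−0.84, SE 0.18, adjusted p = 0.00146 by edgeR), *Parp12* (−0.77, SE 0.17), *Psmb10* (−0.55, SE 0.13), *Tapbp* (−0.61, SE 0.15), *Erap1* (−0.72, SE 0.20) and *Bst2* (−0.36, SE 0.09) made up the rest. In the other direction edgeR and DESeq2 called 0 members, and 0 had an unadjusted p under 0.05 in edgeR. DESeq2 called 4 of the 9. For *Ddx60*, *Ifi35*, *Psmb8* and *Psme1* the responses were not shown to differ (adjusted p = 0.222 by edgeR, 0.452, 0.104 and 0.112).

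Before doxycycline the lines already stood at different levels. Of the 35 members 16 were higher in the untreated wild-type line and 4 lower, while 22.6% of all genes tested were called higher and 23% lower (45.5% in either direction). The lines' libraries did not overlap for 16 members upward (25.6% of all genes) and 5 downward (26.2%). The share of members called higher (45.7%) lay above that background and the share called lower (11.4%) below it. The median log2 fold change, wild-type over mutant, was 0.37, against −0.00 over all genes.

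All 5 tested genes of the PML and PARP list were higher in the untreated wild-type line, as were 22.6% of all genes tested. *Pml* differed by 0.93 (SE 0.05, adjusted p = 8.05e-22 by edgeR), *Parp14* by 1.20, *Parp9* by 0.74, *Dtx3l* by 0.53 and *Parp12* by 0.48. Sensors and effectors held wide differences too. *Ddx58* read 26.2, 27.4 and 25.6 CPM in the wild-type and 12.2, 11.2 and 8.56 in the mutant libraries (1.30, SE 0.14, adjusted p = 3.51e-11 by edgeR). *Ifi35* stood at 9.35 ± 1.21 against 1.96 ± 0.649 (2.23, SE 0.27), and *Nmi*, its binding partner, at 4.59 ± 0.492 against 1.40 ± 0.392 (1.69, SE 0.37). *Trim25*, the ubiquitin ligase that activates RIG-I, was higher by 0.53, *Eif2ak2*, the RNA-activated kinase PKR, by 0.41, and *Stat2* by 0.40.

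*Irf1* was higher by 0.37 (SE 0.07, adjusted p = 1.80e-05 by edgeR), and *Psmb10* by 1.34 (SE 0.09, 7.43e-19). *Psmb8*, *Ddx60* and *Ifit2*, of a family of interferon-induced RNA-binding proteins, were called higher at 0.55, 0.84 and 0.65, calls that were each lost without several single libraries. Their edgeR adjusted p then rose to at most 0.109, 0.365 and 0.171. *Ddx60* had 0.42 without untreated wild-type library 3. *Eif2ak2* had adjusted p = 0.0689 by edgeR without untreated mutant library 1.

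The 4 members lower in the untreated wild-type line were *Ifnar1*, *Irf9*, *Psme1* and *Psme2*. *Psme1* read 57.6 to 64.4 CPM against 95.7 to 99.7 in the mutant line (−0.68, SE 0.07, adjusted p = 2.63e-11 by edgeR), and *Psme2* 65.2 to 70.3 against 111 to 113 (−0.71, SE 0.07, adjusted p = 1.24e-12 by edgeR). *Ifnar1* read 47.5 to 55.4 against 68.5 to 75.3 (−0.49, SE 0.08). *Irf9* held 17 to 20 counts against 32 to 37 (−0.70, SE 0.24, adjusted p = 0.014 by edgeR), and its adjusted p was 0.061 without untreated wild-type library 3. *Psme1*, *Psme2* and *Irf9* lie within 31.9 kb of each other on chromosome 14 (55578123 to 55610030). *Ifnar1* lies between *Ifnar2* and *Ifngr2* in 193 kb of chromosome 16 (91372783 to 91565623), and these neighbours were not called (−0.04 and −0.25).

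With doxycycline in both lines, 10 members were higher in the wild-type line and 8 lower, against 22.4% and 21.9% of all genes tested and 44.4% in either direction (28.6% and 22.9% of members). The libraries did not overlap for 10 members upward and 10 downward (25.6% and 26.1% of all genes). Higher were *Ddx58* (1.46, SE 0.15), *Ifi35* (1.42), *Parp14* (1.21), *Nmi* (1.01), *Psmb10* (0.79), *Eif2ak2* (0.64), *Stat2* (0.54), *Trim25* (0.43), *Dtx3l* (0.41) and *Pml* (0.37). The 8 lower were *Psme2*, *Psme1*, *Erap1*, *Tapbp*, *Ifngr1*, *Irf1*, *Ifnar1* and *Bst2*. *Psme2*, which was lower before treatment, now differed by −1.29 (SE 0.08, adjusted p = 3.25e-21 by edgeR) and *Psme1* by −1.01 (SE 0.08).

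*Irf1* changed sides. It was called higher in the wild-type line without doxycycline and lower with it, at 58.8 ± 5.36 against 76.9 ± 2.34 CPM (−0.39, SE 0.08, adjusted p = 3.06e-05 by edgeR). *Tapbp* and *Erap1* were not called between the untreated lines (−0.11 and −0.13) and were lower in the treated wild-type line by 0.72 and 0.85 on the log2 scale. *Parp9* and *Parp12*, higher before treatment, were then not called (−0.11 and −0.29, adjusted p = 0.531 by edgeR and 0.0612). *Pml* and *Psmb10* fell in the wild-type line and were still called higher there. *Nmi* and *Ifngr1* lost their calls without several single libraries. *Nmi* had 0.52 (adjusted p = 0.425 by edgeR) without treated wild-type library 1, and *Ifngr1* −0.50 (0.0881) without treated wild-type library 3. These comparisons share libraries with the wild-type response, so they are not independent of it.

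**Figure D4:**
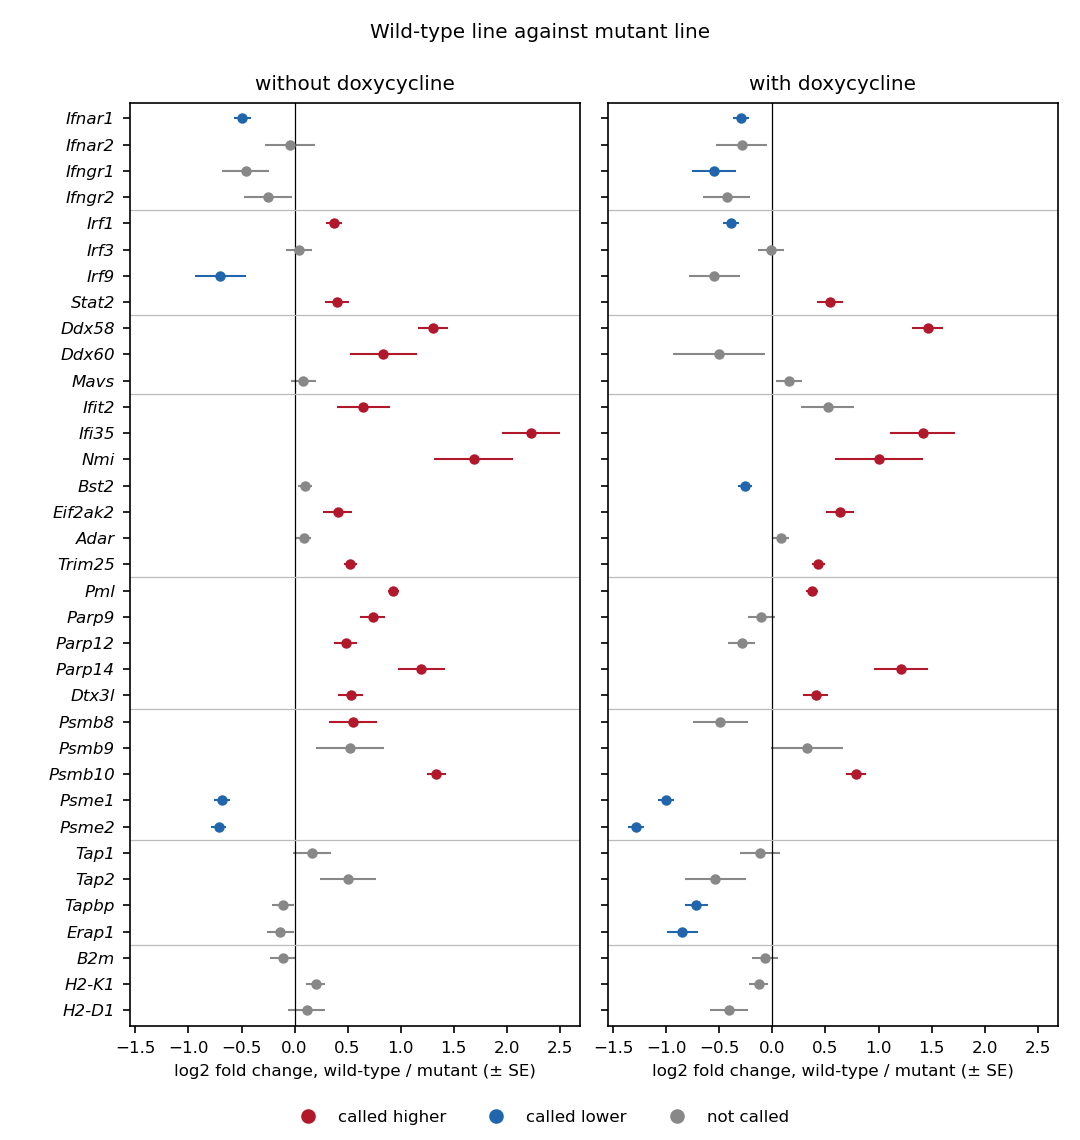
Log2 fold changes (wild-type over mutant line, points) with SE (bars) of the 35 tested members without (left) and with doxycycline (right), by role and with calls in colour. *Irf1* is called higher without and lower with doxycycline, *Psme1* and *Psme2* are lower in both, and *Ddx58*, *Ifi35*, *Parp14* and *Psmb10* are higher in both.

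Levels were compared between genes only per length, as CPM per kb of annotated exon (GENCODE M21). In untreated wild-type embryoid bodies the highest tested member was *Bst2*, at 113 ± 3.11 CPM per kb, followed by *Pml* at 52.8 ± 0.797 and *Psmb10* at 45.8 ± 3.49. *Psme2* (38.7 ± 1.52) and *Psme1* (27.6 ± 1.56) came next. *Trim25* at 24.3 ± 1.28, *B2m* at 24.2 ± 2.26 and *Irf1* at 23.9 ± 0.561 did not differ beyond their spread. The lowest tested member was *Ddx60*, at 0.532 ± 0.242. In the untreated mutant line the order was another: *Psme2* (63.5 ± 0.702) and *Psme1* (44.4 ± 0.968) stood above *Pml* (27.7 ± 0.365), and *Psmb10* was at 18.2 ± 0.524. The exon length counts all annotated isoforms, which may not be those counted by the authors.

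**Figure D5:**
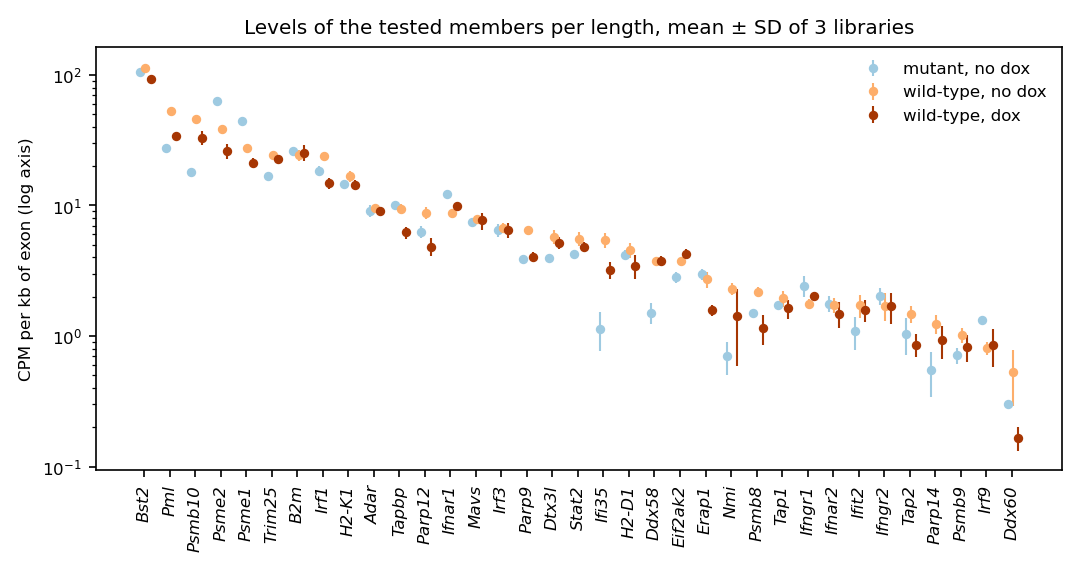
Mean CPM per kb of exon (log axis) with SD of 3 libraries for the 35 tested members, ordered by the untreated wild-type group, in 3 of the 4 groups. *Bst2* is the highest in each of the 3, and *Ddx60* the lowest.

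The remaining members were rare. *Dhx58*, *Nlrc5* and *Ifit3* held 58, 59 and 34 counts over the 12 libraries and did not pass the filter. Below 30 counts were *Irf2* (25), *Ifih1* (23), *Ifit1* (23), *Irf7* (16), *Tmem173* (14), *Isg15* (9) and *Usp18* (5). *Sp100*, a partner of PML in nuclear bodies, had 0 counts in every library, which allows a level of up to 0.611 to 0.714 CPM (3 counts per library, counting error only). *Isg15*, the ubiquitin-like protein that is among the strongest targets of type I interferon, and *Usp18*, which removes it from proteins, never exceeded 3 counts in a library. Outside the list, *Ifnb1*, the type I interferon gene, had 0 counts, *Mx1* 1 and *Mx2* 12. Without the filter 1 of these rare members was called, in 1 comparison: *Nlrc5* held 6, 4 and 11 counts in the treated wild-type and 2, 2 and 2 in the treated mutant libraries, without overlap (log2 fold change 1.83, SE 0.64, adjusted p = 0.0176 by edgeR). That fit called 5572 genes in this comparison. DESeq2, also run without this filter, did not call *Nlrc5* there.

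Other genes of the pathway came from 3 further lists. Of 24 other interferon-induced genes tested, 3 fell and none rose in the wild-type line (2.56% of all genes fell and 2.76% rose), with a median log2 fold change of −0.12. These were, named after their values were seen, *Gbp2*, a guanylate-binding protein (12 ± 0.518 to 6.81 ± 2.13 CPM, log2 fold change −0.83, adjusted p = 0.00391 by edgeR), *Irgm1*, an immunity GTPase (30.3 ± 1.87 to 22.9 ± 1.82, −0.40, adjusted p = 0.0278 by edgeR), and *Oasl2* (−0.98, adjusted p = 0.0404 by edgeR). *Gbp2* and *Irgm1* also differed between the responses (−1.09 and −0.61). Of 20 tested kinases, adaptors and regulators of the pathway none was called. Of 21 other antigen-processing genes 2 rose and none fell, against the same 2.76% and 2.56% of all genes, with a median of −0.07. *Calr*, calreticulin, rose by 0.20 (SE 0.05) and *Canx*, calnexin, by 0.14 (SE 0.04), both chaperones of the endoplasmic reticulum. No gene of these lists was called in the mutant line.

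Between the untreated lines, 11 of the 24 other induced genes were higher in the wild-type line and 3 lower, where 22.6% of all genes were higher and 23% lower. Their median log2 fold change was 0.53. *Lgals9*, galectin-9, was higher by 2.64 (SE 0.35), *Xaf1* by 1.91 (SE 0.35) and *Gbp3* by 1.63 (SE 0.30), while *Irgm2* reached 1.03 in the treated comparison. Of the 21 antigen-processing genes 9 were higher and 4 lower, the latter near the 23% of all genes (22.6% higher). The nonclassical class I gene *H2-T23* was higher by 1.76 (SE 0.15) and the constitutive proteasome subunit *Psmb6* by 0.59. *Pdia3*, of the peptide-loading complex, differed by −0.45 and *Psmb5* by −0.42. Of the 20 regulators 3 were higher and 6 lower, where 22.6% of all genes were higher and 23% lower. *Trim56* differed by −1.23, *Traf6* by −0.49 and *Irf2bpl* by −0.40, while *Tyk2*, a kinase of the type I receptor, was higher by 0.39.

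Markers of other cell types differed beside these changes, and their part in the members' results was not tested. In the wild-type response 2.76% of all genes tested were called higher and 2.56% lower. The immune markers *Cd68* and *Laptm5* rose by 0.74 and 0.56, 2 of the 3 tested. All 11 immune markers summed to 24.3 to 34.6 CPM in the untreated and 34.4 to 38.2 in the treated wild-type libraries. *Tyrobp* had 0 counts, and *Ptprc*, the pan-leukocyte marker, 3 over all 12 libraries. Of 10 embryonic stem cell and epiblast markers *Nanog* (−0.48) and *Pou5f1* (−0.21) fell and *Fgf5* (0.88) and *Zfp42* (0.32) rose. *Eomes*, from the trophoblast list, rose by 1.62, the only gene called of the 4 tested there. *Cdx2*, *Elf5*, *Hand1* and *Gata3* of that list held 9, 1, 17 and 14 counts over the 12 libraries. No endothelial, fibroblast or extraembryonic endoderm marker was called there, and no marker was called in the mutant line.

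Between the untreated lines *Laptm5* (1.61), *Pecam1* (1.11), *Tek* (0.77), *Col1a1* (1.07), *Zfp42* (1.96) and *Sox2* (0.16) were higher in the wild-type line. *Coro1a* (−1.47), *Gata4* (−1.47), *Fgf5* (−1.001), *Eomes* (−0.97), *Otx2* (−0.59), *Krt8* (−0.47), *Epcam* (−0.39) and *Pou5f1* (−0.15) were lower. The 6 endothelial markers, of which *Emcn* had 0 counts, summed to 50.9 to 57.6 CPM in the wild-type and 26.3 to 33.2 in the mutant libraries. Most of this sum was *Pecam1* (means of 39.8 against 18.5 CPM) and *Tek* (12.8 against 7.52). *Kdr* lay the other way, at 1.37 ± 0.975 against 2.47 ± 0.694 CPM, and was not called. *Cdh5* and *Tie1* held 11 and 8 counts over the 12 libraries. The 9 fibroblast markers summed to 18.3 to 36.5 and 19.3 to 22.3 CPM, ranges that overlapped. With doxycycline *Cd68*, *Laptm5*, *Pecam1*, *Pdgfrb*, *Zfp42* and *Eomes* were higher in the wild-type line (0.61 to 2.30), and *Coro1a*, *Dcn*, *Gata4*, *Dab2*, *Krt8*, *Otx2*, *Epcam*, *Nanog* and *Pou5f1* were lower (−2.21 to −0.41).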

How the data were processed

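Raw counts per gene symbol were deposited by the authors for 12 libraries, without normalization. The submitters' processing notes list Trimmomatic 0.33, TopHat2 2.1.1, limma and mm10, with no role or order. The counting tool, annotation and strand setting were not stated. Columns were matched to libraries, and libraries to groups, by their titles. The members, gene lists, comparisons and alternatives were chosen with earlier results of these data known.

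Counts were tested with edgeR 4.0.16 (R 4.3.3) by the quasi-likelihood test with TMM scaling, filterByExpr (minimum count 10, total 15), robust estimation and 4 group means over all 12 libraries. The 12322 genes tested held 99.8% of counts. Comparisons were each line's response, their difference, and the lines without and with doxycycline. Alternatives were DESeq2 1.42.0, limma-voom (limma 3.58.1), upper-quartile scaling, no filter, only the libraries compared, a replicate block, and libraries left out. Chi-square per degree of freedom between libraries of a group was 1.11 to 6.28, and none were merged.

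Members called in any comparison were named, with up to 4 called genes from each other pathway list by smallest adjusted p, and the called markers. Other genes (*Gbp2*, *Irgm1*, *Oasl2*, *Calr*, *Canx*, *Psmb7*, *Bnip3*, *Adm*, *Rn45s*, *Mx1*, *Mx2*, *Ifnb1*, *Ptprc*, other uncalled markers and uncalled members) were added with their values known. Positions and exon lengths came from GENCODE M21, promoters from RefSeq.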

Additional observations from a re-analysis of the deposited data

Results flagged for a closer look

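The response to doxycycline differed between the lines, by the test of the difference itself, for 9 members. The response of the wild-type line minus that of the mutant line, on the log2 scale, was −0.76 for *Irf1*, −0.36 for *Bst2*, −0.56 for *Pml*, −0.84 for *Parp9*, −0.77 for *Parp12*, −0.55 for *Psmb10*, −0.57 for *Psme2*, −0.61 for *Tapbp* and −0.72 for *Erap1* (edgeR quasi-likelihood test). The calls of *Irf1*, *Pml*, *Parp9* and *Psme2* held under each of the alternatives run. The call of *Erap1* was lost under 9 alternatives (adjusted p 0.0521 to 0.287), that of *Bst2* under 7 (0.054 to 0.176), that of *Tapbp* under 3 (0.0541 to 0.133), that of *Psmb10* under 2 (0.0537 and 0.1) and that of *Parp12* under DESeq2 (0.061).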

How the results depend on the processing

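The count of members that fell in the wild-type line was 10 to 13 under the alternatives, all of them among the 13, and none rose or was called in the mutant line. The difference of responses was called for 4 members in DESeq2 (9 in edgeR, the 4 among them), and for 7 to 9 with single libraries left out. Over all genes DESeq2 called 347 in the wild-type response (655 by edgeR) and 132 in the difference (307), and edgeR called 5 in the mutant response from its own libraries alone (2 from all 12). Leaving out single libraries gave 11 to 13 lower in the wild-type response, 13 to 16 higher and 3 to 5 lower between the untreated lines, and 9 to 10 higher and 7 to 10 lower between the treated lines. Of 60 calls of members over the 5 comparisons, 44 held under every alternative run for them, 16 were lost under some, and none turned its direction. Over all genes tested, the deviations of same-numbered libraries from their group means were little correlated (−0.0646 to 0.0876). Counting error weighs on this measure, so it cannot tell whether the numbers mark a shared culture or day. In the wild-type line, library 3 held the most *Bnip3* of its group both without and with doxycycline (1023 and 490 counts). In the mutant line library 3 held the most without doxycycline (693 against 637 and 536) and the least with it (405 against 607 and 626). With the replicate block the counts were 13 lower in the wild-type response, 9 lower in the difference, 16 higher and 4 lower between the untreated lines, and 10 higher and 8 lower between the treated lines, the same as without it. Within 150 bases of the start, ISRE matches were found in 6 of 40 promoters (1.59% of all windows) and GAS matches in 3 (4.09%). Those 3 GAS matches were all among the 12 genes that fell, with 0 of the 20 other tested members, where 250 bases gave 3 and 3. The shorter motif GAAANNGAA was in 12 promoters within 250 bases (7.13% of all windows). Without the low-count filter 11 members were higher between the treated lines, the 10 and *Nlrc5*. Precision is lowest for the rarest members.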
